A study of Mus musculus with 30 samples.

Results

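The late phase of culture of B cells that lack Irf4 was described by comparing 3 arrays of Irf4-/- B cells taken at day 3 with 3 arrays of the same kind of cell taken at day 1, all without doxycycline. These 6 arrays are all the samples that carry that genotype, dose and these days, out of 30 arrays in 10 groups of 3. The Irf4-/- cells came from mice that also carry an Irf4 gene that doxycycline switches on, so that gene was present, and not induced, in both groups compared. Further groups used here are wild-type (Irf4+/+) cells at days 3 and 1, Irf4-/- cells with 100 ng/mL doxycycline (high DOX) at days 3 and 1, and unstimulated Irf4-/- cells at day 0. The strain is labelled C57BL/6, B1-8i throughout, B1-8i being a line with a preset immunoglobulin heavy chain variable region. Splenic resting B cells were stimulated with a mix of CD40 ligand and the interleukins IL-2, IL-4 and IL-5, and each replicate came from an individual mouse, per the series text. That text adds that, in each group, 2 replicates were run side by side and 1 on another occasion, without naming them, so the occasion cannot be entered as a batch.

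Irf4 encodes a transcription factor that B cells induce when antigen receptor, CD40 or Toll-like receptors are engaged. It is needed for class switch recombination and for the step to the antibody-secreting plasma cell, where it acts with Prdm1 (Blimp-1) and upstream of the secretory programme of Xbp1. CD40 ligand with IL-4 makes resting B cells grow and divide, and IL-5 and IL-2 favour plasma cell formation in wild-type cells.

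RNA was measured on Affymetrix 430 2.0 arrays, and values below are deposited signal intensities, which have no counting depth, so the number of arrays limits the precision. The median intensity per array lay between 182.8 and 199.4 at day 3 and between 188.7 and 193.9 at day 1, and replicates of a group correlated at 0.9865 to 0.9951. Irf4 was read by 2 tested probe sets. One of them, which follows the doxycycline dose, read 189, 146.5 and 164 at day 3, against 213, 1726 and 207 at day 1. Day 1 replicate 2 therefore goes against its label of zero DOX and lies near day 1 low DOX replicates 1 and 3 (16 ng/mL), which read 2289.8 and 1881. Day 1 low DOX replicate 2 read 189.9, near the other zero DOX arrays, so it too goes against its label. Whether the 2 labels were exchanged was not tested. The zero DOX array is called the library labelled day 1 replicate 2, and the comparison is also given without it. The same probe set was as low in wild-type cells (134 to 253 over days 0, 1 and 3). The other set read 2756, 2003 and 1881 at day 3, against 4686, 3972 and 4055 at day 1 in Irf4-/- cells, and 1733 to 9532 in wild-type cells, so neither set checks the deletion itself.

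Across 12183 genes with 1 gene symbol, 6413 (52.6%) differed between day 3 and day 1 at an adjusted p under 0.05, of which 3157 (25.9% of genes) were higher and 3256 (26.7%) lower at day 3. At least 2-fold changes on the log2(intensity + 16) scale were 290 upward and 164 downward, and the median gene differed by -0.016. This test was limma's moderated test with Benjamini-Hochberg adjustment over all genes, and differences below are day 3 minus day 1 on that scale, which understates changes of dim genes. The 3 arrays of each day did not overlap for 58.0% of all genes. Without the library labelled day 1 replicate 2, 5748 genes (47.2%) were called, 2841 higher and 2907 lower. Of the 6413 calls, 5685 (88.6%) were also made without it in the same direction, which is 98.9% of the 5748. Because the arrays were bulk RNA, fewer cells of a type and less RNA per cell cannot be told apart in any result here.

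**Figure D1:**
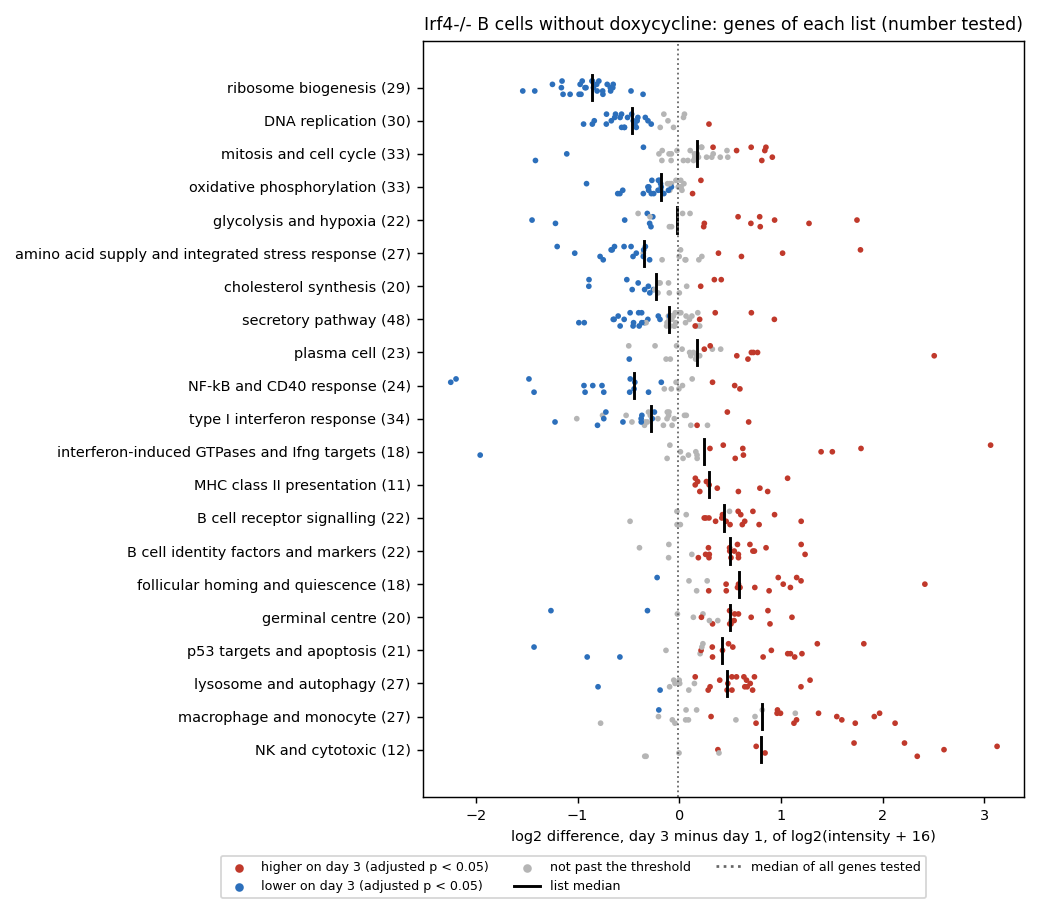
Each point is 1 tested gene of a list, placed by its log2 difference (day 3 minus day 1) in Irf4-/- B cells without doxycycline, with red and blue marking genes past the threshold. The black bars (list medians) run from -0.854 for ribosome biogenesis to 0.817 for macrophage and monocyte markers, and the dotted line is the median of all genes (-0.016).

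The list with the most negative median was that of genes for making ribosomes. All 29 tested genes of ribosome biogenesis fell, with a median difference of -0.854. Nop16, a factor in assembly of the large ribosomal subunit, had intensities of 1341, 1127 and 967 at day 3, against 3104, 3499 and 3396 at day 1. The groups did not overlap (log2 difference -1.54, SE 0.088, adjusted p = 1.44e-12). The other tested probe set of Nop16 differed by only -0.37. Rrp12, which takes part in pre-ribosome export and processing, fell by 1.42, Rrp9, a protein of the U3 small nucleolar particle, by 1.25, and Ebna1bp2 by 1.16 on the log2 scale. The 2 other sets of Ebna1bp2 spanned -1.22 to -0.02. The abundant nucleolar proteins moved less (nucleolin, Ncl, -0.47, and nucleophosmin, Npm1, -0.36). In summed intensity the 29 genes stood at 89510, 82800 and 80890 at day 3 and 140200, 144200 and 145800 at day 1. Unstimulated Irf4-/- cells at day 0 had 83320, 76770 and 76490, close to the day 3 sums.

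The 15 largest decreases also included Srm, spermidine synthase, which read 2158, 1977 and 1869 at day 3, against 6211, 6932 and 6946 at day 1 (log2 difference -1.74, SE 0.062, adjusted p = 1.32e-15). Rpp40, a subunit of RNase P, fell by 1.64, the small nucleolar RNA host gene Snhg3 by 1.81 and the cytosolic folate enzyme Shmt1 by 1.65. Myc, a growth-promoting transcription factor, had 2288, 2186 and 2027 at day 3 and 2369, 2739 and 2945 at day 1, a smaller fall (log2 difference -0.30, SE 0.077, adjusted p = 0.00183).

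DNA replication genes were mostly lower. Of 30 replication genes, 23 fell and 1 rose (Pole2, 0.29), with a median of -0.460. Gins1, a subunit of the replicative helicase complex, read 881, 795 and 909 at day 3, against 1698, 1621 and 1683 at day 1 (log2 difference -0.94, SE 0.054, adjusted p = 1.38e-12). All of Mcm2 to Mcm7, the ring of that helicase, fell, by between 0.42 (decrease of Mcm7) and 0.72 (decrease of Mcm3). Of 33 mitosis and cell cycle genes, 7 rose, 3 fell and 23 did not pass the test (median 0.177), and the share that rose was below the 25.9% among all genes. The risers included Ccnb2, a mitotic cyclin (0.92), and Cenpa, the centromeric histone (0.85). The 3 that fell were Ccnd2, a D-type cyclin of G1 (-1.11), Mybl2 (-1.41) and Ccne1 (-0.35). Mki67, the proliferation marker, averaged higher (log2 difference 0.71, SE 0.292, adjusted p = 0.0457), but its call was lost when any of 5 of the 6 arrays was left out, and its difference was 0.47 without day 1 replicate 3.

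Energy and biosynthetic genes were divided, beside 25.9% of all genes that rose and 26.7% that fell. Of 33 oxidative phosphorylation genes, 20 fell and 2 rose, led by Atp5g1, a subunit of the ATP synthase ring (-0.91). Of 22 glycolysis and hypoxia genes 9 rose and 7 fell, the latter not far above the share of all genes. Hk2, hexokinase 2 (-1.22), and Slc16a1, a lactate transporter (-1.45), fell, while Ankrd37 (1.75), Kdm3a (0.94) and the aldolase Aldoc (1.28) rose. Ankrd37 had 939.5, 796 and 674 at day 3, against 315, 276 and 130.3 at day 1. In cholesterol synthesis 9 of 20 genes fell, with Idi1 and Lss (both -0.89) foremost, and 3 rose (Pmvk, Tm7sf2 and Srebf2, at 0.21 to 0.41). Of 12 fatty acid synthesis genes 4 fell, among them Fasn, fatty acid synthase (-0.66), and 4 rose, led by the desaturase Scd1 (0.86). Both counts were not far above the shares of all genes. Amino acid supply and the integrated stress response had 15 of 27 genes lower, among them the leucine transporter Slc7a5 (-1.20) and mitochondrial Shmt2 (-1.03). The 4 higher ones included Ddit4, an inhibitor of mTORC1 (1.78), and Ddit3 (CHOP, 1.02). Ddit4 read 3762, 4096 and 4008 at day 3, against 1340.4, 1141 and 963 at day 1, without overlap.

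Genes of the CD40 and NF-kB response fell although CD40 ligand was part of the culture. Of 24, 15 fell and 3 rose, with a median of -0.441. Ccl22, a chemokine that attracts Ccr4-bearing T cells, had 5226, 3851 and 2356 at day 3, against 17314, 16845 and 15794 at day 1 (log2 difference -2.20, SE 0.325, adjusted p = 3.87e-06). Its relative Ccl17 read 139.6, 184 and 120.0 at day 3, against 813, 914 and 573 at day 1 (log2 difference -2.25, SE 0.322, adjusted p = 2.45e-06). Replicate 3 was lowest for both chemokines at both days. That the days did not overlap follows from their choice among the largest decreases without overlap. Cd40 itself fell by 0.93, Bcl2l1 (the survival protein Bcl-xL) by 1.43, Gadd45b by 1.48 and Ebi3, a subunit of IL-27 and IL-35, by 0.94. Il12b, the p40 subunit of IL-12 and IL-23, fell furthest of all named genes, with 47.9, 60.8 and 78.0 at day 3, against 297, 585 and 703 at day 1 (log2 difference -2.73, SE 0.257, adjusted p = 3.58e-09). Cd70 and Tnfsf9 (4-1BB ligand), a pair of surface ligands of the TNF family, fell by 1.42 and 1.24 within a costimulatory list of 16 in which 4 rose and 3 fell. Those shares did not exceed the 25.9% and 26.7% of all genes that rose and fell. Batf, a partner of Irf4 on DNA, read 2143, 1770.2 and 2022 at day 3 and 3600.4, 3410.0 and 4101 at day 1 (log2 difference -0.90, SE 0.083, adjusted p = 2.65e-09).

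Interferon-responsive genes did not move as one group. In the type I interferon list 10 of 34 genes fell, a share near the 26.7% of all genes that did, while 3 rose and 21 did not pass the test (median -0.275). Ifit1, an antiviral RNA-binding protein, had 1906, 1975 and 1347 at day 3, against 4687, 4358 and 3202 at day 1 (log2 difference -1.22, SE 0.248, adjusted p = 2.03e-04). Bst2 (tetherin) read 4302, 4472 and 3954 at day 3, against 7878, 7523 and 6863 at day 1 (log2 difference -0.80, SE 0.106, adjusted p = 7.27e-07). In the list of interferon-induced GTPases and interferon gamma targets, 9 of 18 rose, 1 fell and 8 did not pass. Gbp2b, a guanylate-binding protein, read 2936, 3382 and 2407 at day 3, against 373, 319.8 and 303 at day 1 (log2 difference 3.06, SE 0.188, adjusted p = 3.73e-12). Iigp1 and Gbp8 rose by 1.51 and 1.79 on the log2 scale, and Cxcl9, a ligand of Cxcr3, by 1.40. The gene that fell was another Cxcr3 ligand, Cxcl10, with 1855, 1897 and 1073 at day 3 and 6884, 7139 and 4612 at day 1 (log2 difference -1.96, SE 0.304, adjusted p = 7.38e-06).

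The promoters of 4 of these genes are shown, 2 from each list. They are the called genes with the largest changes among those whose promoter on file matched the interferon-stimulated response element. Irf-family and Stat-Irf9 complexes bind that site. That all 4 carry the element therefore follows from the choice. Of the 4, 3 fell and Gbp2b rose. Each run is RefSeq sequence of build GRCm38.p6, from 250 bases before to 50 bases after the start site, 5′ to 3′ on the gene's strand, with matches to the element, taken as GAAA and GAAA with any 2 bases between them and read on either strand, in capitals. Ifit1 lies at chr19:34640639-34640938, plus strand, Bst2 at chr8:71537423-71537722, minus strand, Gbp2b at chr3:142594597-142594896, plus strand, and Cxcl10 at chr5:92348840-92349139, minus strand.
Ifit1: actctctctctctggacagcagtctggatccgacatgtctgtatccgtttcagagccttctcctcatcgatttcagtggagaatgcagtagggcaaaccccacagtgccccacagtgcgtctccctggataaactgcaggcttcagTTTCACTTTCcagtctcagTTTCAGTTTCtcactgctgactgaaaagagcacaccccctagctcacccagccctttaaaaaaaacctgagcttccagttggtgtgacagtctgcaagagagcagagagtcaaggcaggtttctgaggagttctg
Bst2: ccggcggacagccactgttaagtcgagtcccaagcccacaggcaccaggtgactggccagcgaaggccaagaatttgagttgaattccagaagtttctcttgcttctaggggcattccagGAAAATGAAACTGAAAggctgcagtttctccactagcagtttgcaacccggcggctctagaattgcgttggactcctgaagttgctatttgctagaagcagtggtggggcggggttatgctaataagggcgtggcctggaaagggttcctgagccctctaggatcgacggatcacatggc
Gbp2b: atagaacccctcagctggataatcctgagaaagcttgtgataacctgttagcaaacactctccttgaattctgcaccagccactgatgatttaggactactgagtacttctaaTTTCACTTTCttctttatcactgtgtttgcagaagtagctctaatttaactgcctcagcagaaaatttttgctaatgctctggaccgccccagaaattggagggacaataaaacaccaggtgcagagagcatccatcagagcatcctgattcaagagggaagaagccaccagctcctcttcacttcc
Cxcl10: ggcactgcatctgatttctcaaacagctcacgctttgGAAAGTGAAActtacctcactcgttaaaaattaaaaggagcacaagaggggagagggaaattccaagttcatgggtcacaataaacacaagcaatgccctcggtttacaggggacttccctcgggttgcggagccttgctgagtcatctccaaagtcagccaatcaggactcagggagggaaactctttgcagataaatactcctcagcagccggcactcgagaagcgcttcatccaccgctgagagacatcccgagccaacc
Ifit1 and Bst2 hold 2 matches each and Gbp2b and Cxcl10 1 each, and the first match begins at position -104, -130, -137 and -213 from the start site in the order printed. Among promoters on file, 12 of 25 (48.0%) type I interferon genes and 9 of 13 (69.2%) GTPase and interferon gamma genes held this motif, against 943 of 27025 promoters in all (3.49%). The Ets-Irf composite motif, GGAA and GAAA with any 2 bases between them, was in 1 of 25 and 2 of 13 of those promoters and in 2.79% of all, and a promoter could hold both motifs. In the mitosis list 20 of 26 promoters held CCAAT (37.92% of all did) and 16 of 26 held TTTGAA (18.11% of all), while the sterol-response-like TCACNCCAC was in 1 of 16 cholesterol promoters (1.22% of all). These are letter matches on both strands, and no binding was measured.

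**Figure D2:**
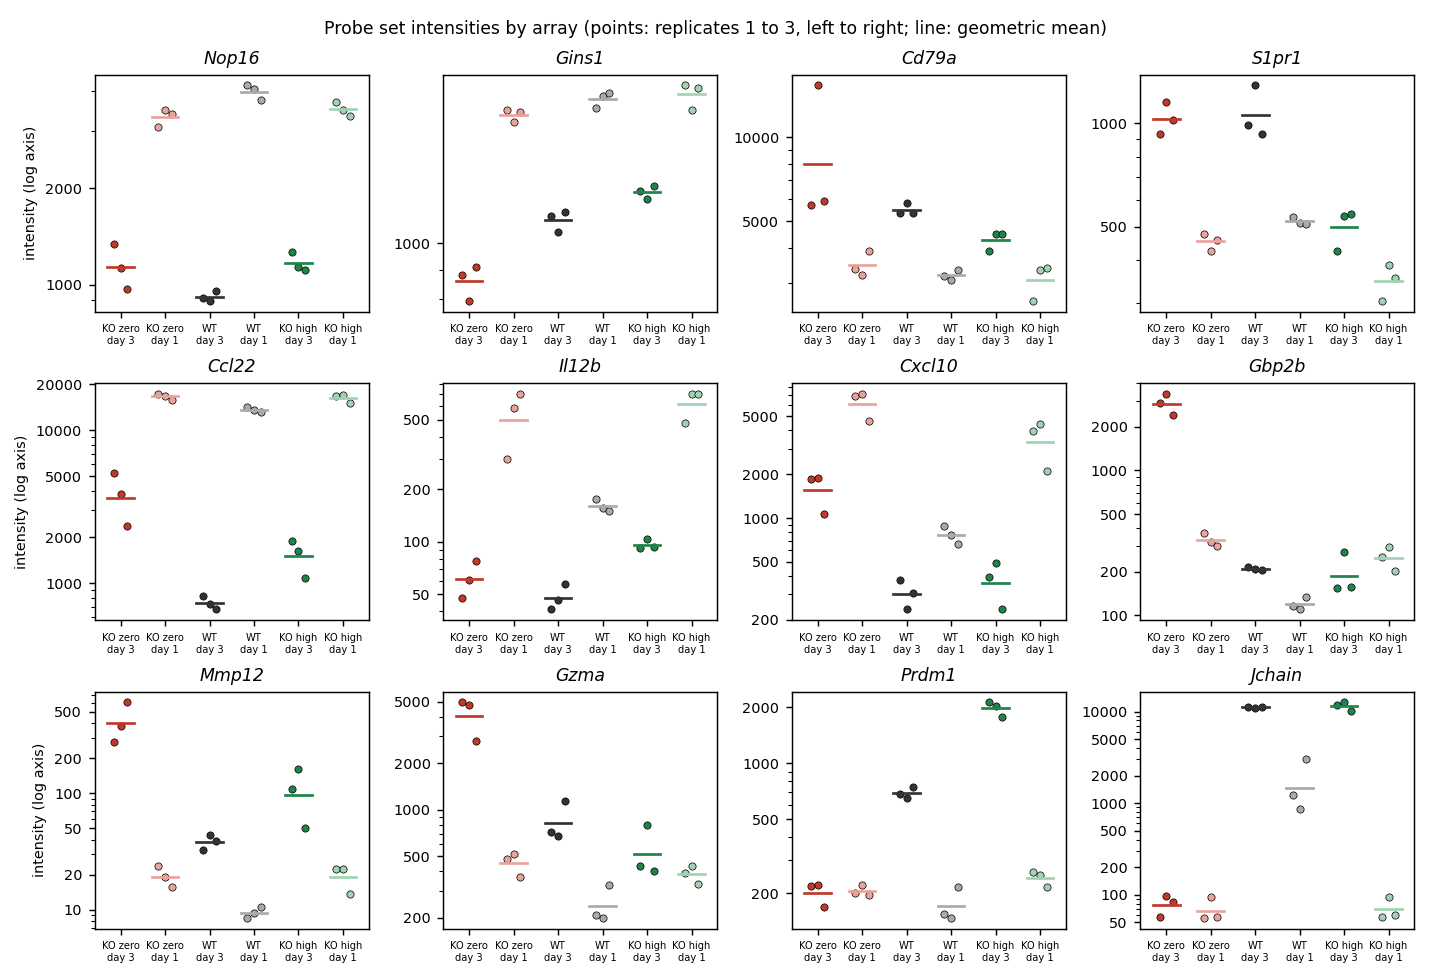
Signal intensity (log axis) of 12 genes on each array, for Irf4-/- cells without doxycycline (KO zero), wild-type cells (WT) and Irf4-/- cells with 100 ng/mL doxycycline (KO high) at days 3 and 1, with lines at the geometric mean. Nop16 and Ccl22 are lower at day 3 in all 3 kinds of cell, Gbp2b is high (2407 to 3382) only at day 3 in KO zero cells, and Jchain stays between 55.8 and 97.4 in KO zero cells at both days while it reaches 10111 to 12587 at day 3 in the others.

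Most listed genes that define B cells, or that sense antigen, were higher at day 3, beside 25.9% of all genes that rose and 26.7% that fell. Of 22 B cell identity genes, 18 rose and none fell (median 0.502), the 4 others being Tcf3, Spi1, Fcer2a and Id3, which did not pass the test. Of 22 B cell receptor signalling genes, 16 rose and none fell (median 0.443). Blk, a Src-family kinase of the receptor, read 3075, 3441 and 3412 at day 3, against 1421, 1461 and 1302 at day 1 (log2 difference 1.24, SE 0.094, adjusted p = 1.19e-10). Cd79a, a signalling chain of the receptor, had 5695, 15305 and 5916 at day 3, against 3374, 3214 and 3902 at day 1. The day 3 array of replicate 2 stood apart, and the difference of Cd79a was 1.20 with it and 0.73 without it. Among transcription factors Bach2 (0.51), Spib (0.58), Irf8 (0.49) and Ikzf3 (0.74) rose, as did Maf (1.09), while Id2 (0.21) and Id3 (-0.10) did not pass the test. Tbx21 (T-bet) averaged 0.39 higher and did not pass (adjusted p = 0.0552), but it did with the replicate number as a block (adjusted p = 7.75e-04) and without the library labelled day 1 replicate 2 (0.57, adjusted p = 0.00856). Pax5 averaged 0.26 higher, and that call was lost without the library labelled day 1 replicate 2 (0.18, adjusted p = 0.204). Without that library the signalling list still had 16 genes higher, with 1 lower, and the identity list 17 higher.

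Most listed homing and MHC class II genes moved the same way, beside 25.9% of all genes that rose and 26.7% that fell. In the list for follicular homing and quiescence 14 of 18 rose and 1 fell (Il7r, -0.22), with a median of 0.590. S1pr1, the receptor for sphingosine 1-phosphate that guides exit from lymphoid tissue, read 929, 1152 and 1021 at day 3, against 478, 425 and 459.6 at day 1 (log2 difference 1.15, SE 0.127, adjusted p = 4.66e-08). Its regulator Klf2 rose by 0.74 and the chemokine receptor Ccr7 by 1.20 on the log2 scale. Ccr6, the receptor for Ccl20, had 4940.3, 5370.3 and 6643 at day 3, against 929, 682 and 1758 at day 1 (log2 difference 2.42, SE 0.327, adjusted p = 1.05e-06). Day 0 levels of S1pr1 were 3864, 4218 and 3021, above both culture days, whereas those of Ccr6 were 3063, 2831 and 5289. All 11 tested genes of MHC class II presentation rose (median 0.294), from 0.16 for H2-Ab1 and Ctss to 1.07 for H2-Oa, a modulator of peptide loading. Their transactivator Ciita rose by 0.79. Of 11 class I genes 2 rose and 1 fell, both below the shares of all genes.

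The germinal centre list had 12 of 20 genes higher and 2 lower (median 0.495). Bcl6, the repressor that defines germinal centre B cells, read 2360.4, 2450.1 and 2898 at day 3, against 992, 1044 and 1579 at day 1 (log2 difference 1.11, SE 0.205, adjusted p = 6.78e-05). Its other tested probe set differed by only 0.2. Lmo2 (0.89) and Plxnb2 (0.87) rose, and Ung, the uracil glycosylase used in switching and hypermutation, fell by 1.26. Of the list, Gcsam, Rgs13 and S1pr2 did not pass the test.

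More genes of p53 response, apoptosis and lysosomes were higher than lower, beside 25.9% of all genes that rose and 26.7% that fell. Of 21 p53 target and apoptosis genes 14 rose and 3 fell. Trp53inp1 read 5313, 5801 and 5579 at day 3, against 1473, 1548 and 1693 at day 1 (log2 difference 1.82, SE 0.103, adjusted p = 1.29e-12), and Bcl2l11, the pro-apoptotic protein Bim, rose by 1.36. Bcl2 rose by 0.43 and Mcl1 by 0.21, while Bcl2l1 fell, so survival genes of one family differed in direction. Among 27 lysosome and autophagy genes 18 rose and 2 fell (median 0.470), led by the proteases Ctsa (1.29) and Ctsd (1.20). In the list of cytokine receptors and their signalling, 10 of 25 rose, including Il4ra (1.04), Il10ra (1.22) and Stat4 (1.51), and 4 fell, including Il5ra (-1.06), the receptor chain for IL-5. Of 20 immediate early genes 8 rose, led by Egr3 (1.66) and Egr1 (1.26), and 2 fell. In each of these lists the share that fell was below that of all genes.

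Of 23 plasma cell genes 8 rose, 1 fell and 14 did not pass the test (median 0.172), beside 25.9% of all genes that rose and 26.7% that fell. Prdm1 read 219, 221 and 169 at day 3, against 199.7, 222 and 196 at day 1 (log2 difference -0.03, SE 0.199, adjusted p = 0.925), and the groups overlapped. Jchain, which joins the units of polymeric antibody, had 57.0, 97.4 and 83.8 at day 3, against 55.8, 93.9 and 57.2 at day 1 (log2 difference 0.17, SE 0.312, adjusted p = 0.677). At both days Prdm1 lay near the table median (188.25) and Jchain below it, close to background, which limits what these differences can show. Ighm, Igha and Xbp1 did not pass the test either by their represented probe sets. Of 3 other sets of Xbp1, which spanned -0.32 to 0.22, 1 passed as lower. The 8 other sets of Ighm spanned -0.36 to 0.78. Ighg3 rose by 0.78, and that call was lost without day 3 replicate 2 (0.66) or day 1 replicate 3 (0.69). The riser with the largest change was Eaf2, a partner of the elongation factor Ell2, with 1847, 1643 and 2357 at day 3, against 309.9, 367 and 304 at day 1 (log2 difference 2.51, SE 0.184, adjusted p = 6.96e-11). Eaf2 rose further in wild-type cells (3.98) and with high DOX (3.35). Sdc1 (CD138), a plasma cell surface marker, rose by 0.68 by its represented probe set, from dim signals of 179, 236 and 144 at day 3 and 93.7, 116 and 117 at day 1, while 1 of its 3 other sets went the opposite way. The gene that fell, Bhlha15 (Mist1, a factor for secretory cell structure), did so by 0.49, and the call was lost without the library labelled day 1 replicate 2 (adjusted p = 0.0501). In the secretory pathway list 19 of 48 fell, among them the chaperones Hyou1 (-0.93) and Sdf2l1 (-0.99), and 5 rose. Hnrnpll, a splicing factor that acts on Cd45 and immunoglobulin transcripts, read 195, 230.2 and 156 at day 3, against 934, 795 and 665 at day 1 (log2 difference -1.96, SE 0.177, adjusted p = 1.88e-09).

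Some of the largest increases were of genes that are known from other blood cells. Gzma, granzyme A of cytotoxic lymphocytes, read 4966, 4759 and 2806 at day 3, against 479.8, 516 and 367 at day 1 (log2 difference 3.13, SE 0.277, adjusted p = 1.40e-09). Mmp12, the macrophage elastase, read 275, 382 and 604 at day 3, against 23.6, 19.3 and 15.6 at day 1 (log2 difference 3.55, SE 0.262, adjusted p = 7.03e-11). Ppbp, a chemokine of platelets and their precursors, read 655, 1054 and 1147 at day 3, against 55.8, 52.3 and 63.0 at day 1 (log2 difference 3.69, SE 0.269, adjusted p = 6.08e-11). None of the 3 genes overlapped between days, which follows from their choice among genes without overlap. The arrays of the 2 days did not overlap for 58.0% of all genes. Whole marker lists moved in part, beside 25.9% of all genes that rose and 26.7% that fell. Of 12 NK and cytotoxic markers 8 rose and none fell (median 0.80), also Klrd1 (CD94, 2.60), Prf1 (perforin, 2.34), Gzmb (2.21) and Nkg7 (1.72). Their summed intensity was 17270, 21500 and 11650 at day 3, against 7467, 9957 and 6408 at day 1. Of 27 macrophage and monocyte markers 14 rose and 1 fell (median 0.817), with Ccl6 (2.12), Gpnmb (1.97), Lyz1 (1.73) and Cd68 (1.00) among the risers. Csf1r, Adgre1, Cd14 and the 3 C1q genes, which define macrophages too, did not pass the test. That list summed to 27700, 38670 and 30630 at day 3, against 18750, 20720 and 17980 at day 1, and to 42180, 50400 and 22400 in unstimulated cells at day 0. Replicate 2 was highest at day 3 for both lists.

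Pf4, the other platelet chemokine, rose by 2.60, while of the other 6 platelet markers tested Gp9 rose by 0.24, Itga2b fell by 0.25, Clec1b fell by 0.46 (a call lost without the library labelled day 1 replicate 2) and Gp1bb, Gp5 and Treml1 did not pass. T cell markers had 4 of 12 higher and 1 lower, with sums of 4366, 4382 and 4188 at day 3, against 4068, 3908 and 3736 at day 1. Neutrophil markers had 1 of 10 higher and 2 lower, dendritic cell markers 1 of 9 higher and 3 lower, mast cell and basophil markers 1 of 6 higher, and the 1 erythroid marker tested did not pass. Among all genes 25.9% rose and 26.7% fell. The T cell count higher and the dendritic count lower were not far above those shares. The other counts of the T cell, neutrophil, dendritic and mast cell lists were below them. B cell markers themselves rose (8 of 9, with Fcer2a not passing). They summed to 69960, 80970 and 72290 at day 3, against 56400, 52220 and 59150 at day 1, and Ms4a1 (CD20) read 16732, 16935 and 17092 at day 3, against 14759.9, 14514 and 15294 at day 1, so the defining markers of the labelled cell type were bright in both groups. The part of other cell types in the rise of lysosome, GTPase and chemokine genes was not tested. The genes Ryr2 and Pacsin1 were on none of these lists. Ryr2, a calcium release channel, read 862, 752 and 1143 at day 3, against 80.3, 61.9 and 102 at day 1 (log2 difference 3.26, SE 0.244, adjusted p = 8.97e-11), and Pacsin1, an endocytic adaptor, rose by 2.61. Tanc2 (2.53), Gimap7 (2.51), Ifitm1 (2.36) and Gzmc (2.93) completed the 15 largest increases. Over the same days in wild-type cells Ryr2 rose by 3.53, Pacsin1 by 2.34, Tanc2 by 2.90 and Gimap7 by 2.80. Ifitm1 (1.53) and Gzmc (1.76) rose there too. Nqo1, a quinone reductase (-2.26), Esam, an adhesion molecule (-2.26), Cth, the cysteine-making enzyme (-1.80), Adm, adrenomedullin (-1.74), Prxl2b (-1.84) and Txnrd3 (-1.62) completed the 15 largest decreases.

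**Figure D3:**
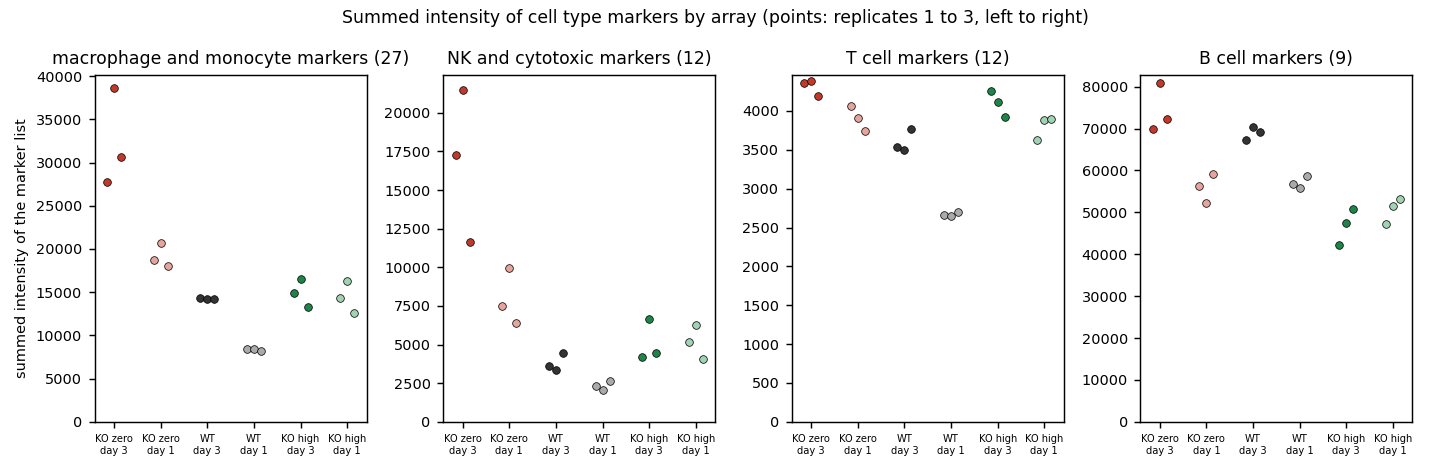
Summed intensity of the tested markers of 4 cell types on each array, with axes from 0. Irf4-/- cells without doxycycline (KO zero) have the highest macrophage and NK sums at day 3 (27700 to 38670 and 11650 to 21500). The day 3 sums of wild-type and high DOX cells are at or below 16520 and 6658. KO zero sums were also the highest at day 1, at 17980 to 20720 and 6408 to 9957. Wild-type sums rose too. Their macrophage sums were 8232 to 8396 at day 1 and 14200 to 14310 at day 3. Their NK sums were 2039 to 2623 at day 1 and 3324 to 4481 at day 3.

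Wild-type cells passed through the same 2 days, and the difference between the 2 changes (KO zero DOX minus wild type) was tested as an interaction. It passed in 3557 of 12183 genes (29.2%), with 1096 more positive (9.0% of genes) and 2461 more negative (20.2%) in Irf4-/- cells without doxycycline. The direction of that split depends on scaling. The wild-type day 1 arrays had the lowest medians of the groups (171.4 to 174.2), and with every array centred on its median 3775 genes passed, of which 64.8% were more positive, against 30.8% as deposited. The median interaction over all genes was -0.067 as deposited and 0.082 centred. The sexes differed too. By Xist, a transcript of the inactive X chromosome, all wild-type arrays at these days were female (4765 to 5853), and so was Irf4-/- replicate 3 (5660.5 at day 3 and 4746 at day 1), whereas Irf4-/- replicates 1 and 2 were male at both days (55.9 to 79.9). With the zero DOX arrays of replicate 3 alone, an alternative chosen after the data were seen, 213 genes passed, 45 more positive and 168 more negative. That fit has 1 array a day and assumes that it varies like the other groups. Plasma cell genes did not turn with either choice. Of 23, 17 changed more negatively in Irf4-/- cells and none more positively (15 and 1 after centring), with a median of -1.178, and with replicate 3 alone 7 were more negative and none more positive (median -1.091). Jchain read 11339, 10998 and 11258 in wild-type cells at day 3 and 1229.5, 862 and 3009.7 at day 1, and the interaction was -2.74 (SE 0.442, adjusted p = 1.61e-04, but -2.46 and 0.0544 with replicate 3 alone). Bhlha15 had the most negative interaction (-3.05, SE 0.223, adjusted p = 3.39e-09), reading 654, 633 and 575 in wild-type cells at day 3 and 83.0, 91.8 and 101 at day 1. The amino acid enzyme Cth fell in Irf4-/- cells and read 498, 556 and 401 at day 3, against 291, 303 and 355 at day 1, in wild-type cells (interaction -2.38).

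The fall of CD40 and NF-kB genes was smaller in Irf4-/- cells. Of 24, 15 had a more positive change and 1 a more negative one (18 and 0 after centring), with a median interaction of 0.458 (0.387 with replicate 3 alone, where 6 were more positive and none more negative). Ccl22 in wild-type cells read 821, 733 and 674 at day 3, against 14177, 13584 and 13261 at day 1, a deeper fall than without Irf4 (interaction 1.98, SE 0.46, adjusted p = 0.00322, but 1.44 and 0.306 with replicate 3 alone). Ccnd2 likewise fell less (1.09). Cholesterol synthesis genes changed more negatively in 13 of 20 (9 after centring) and more positively in none. Ribosome biogenesis genes differed in 6 of 29 as deposited and in 16 after centring, all more positive. For the B cell identity list 1 of 22 was more positive and 1 more negative (5 and 1 after centring), and for follicular homing 2 and 1 of 18 (likewise after centring). With replicate 3 alone no gene of these 4 lists, from cholesterol synthesis to follicular homing, passed. Gbp2b read 214, 209.5 and 205 in wild-type cells at day 3, against 116, 109.8 and 134 at day 1 (interaction 2.32), whereas Iigp1 rose more in wild type, with 7427, 4998 and 6153 at day 3, against 607, 506 and 662 at day 1 (interaction -1.84, adjusted p = 3.26e-04, but 0.0729 with replicate 3 alone). Mmp12 (2.47), Ppbp (1.62) and Gzma (1.41) had more positive changes without Irf4. Each also rose in wild-type cells, as did the macrophage and NK sums. Of 27 macrophage markers 5 changed more positively without Irf4 and 2 more negatively, and of 12 NK markers 3 and 1. Among all genes 9.0% were more positive and 20.2% more negative. With replicate 3 alone Mmp12 kept its call (adjusted p = 0.00187), and Ppbp (0.101) and Gzma (0.333) did not.

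Irf4-/- cells with 100 ng/mL doxycycline share the genotype and differ in induced Irf4, and also in doxycycline, which had no control of its own here. The interaction (KO zero DOX minus KO high DOX) passed in 3193 genes (26.2%), 1681 (13.8%) more positive and 1512 (12.4%) more negative. Centred arrays gave 2866, of which 59.4% were more positive, against 52.6% as deposited. Plasma cell genes were more negative without doxycycline in 19 of 23 (median -1.984), and secretory pathway genes in 46 of 48 (median -0.647) with none more positive. Jchain was 11841, 12587 and 10111 with high DOX at day 3, against 56.8, 95.6 and 60.9 at day 1 (interaction -6.90, SE 0.442, adjusted p = 8.10e-11). Prdm1 was 2131, 2049.9 and 1770.4 with high DOX at day 3, against 259, 250.2 and 217 at day 1 (interaction -2.98, SE 0.281, adjusted p = 3.08e-08). Hyou1 rose with high DOX, to 4544, 4560.5 and 3722 at day 3, against 2784, 2689.6 and 2911 at day 1, where it fell without doxycycline.

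**Figure D4:**
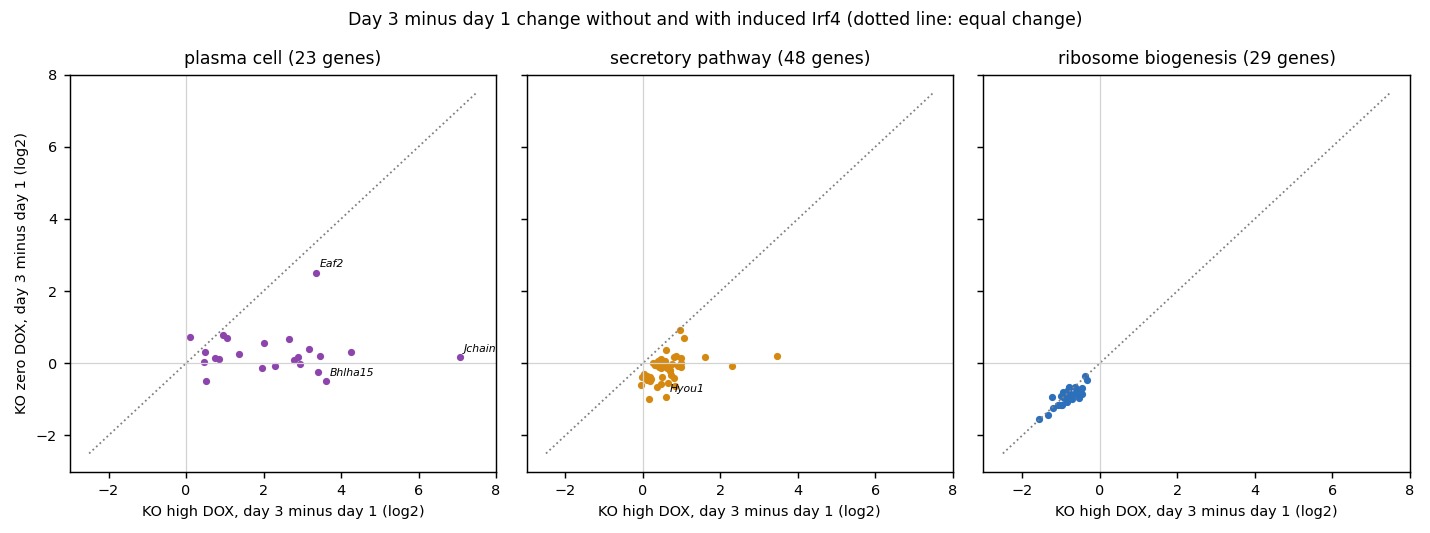
Day 3 minus day 1 log2 difference of each tested gene in Irf4-/- cells without doxycycline (y) and with 100 ng/mL doxycycline (x), for 3 gene lists, with the dotted line marking equal change. Plasma cell and secretory pathway genes lie mostly below the line (19 of 23 and 46 of 48 with a more negative tested change), while ribosome biogenesis genes fell on both axes.

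MHC class II genes were more positive without doxycycline in 9 of 11 genes, B cell receptor signalling genes in 13 of 22 and identity genes in 12 of 22 (1 and 2 were more negative). Bcl6 read 688, 911 and 1341 with high DOX at day 3, against 691, 887 and 1103 at day 1, and overlapped there. The same probe set rose without doxycycline (interaction 1.01, SE 0.29, adjusted p = 0.0118). Glycolysis and hypoxia genes were more negative without doxycycline in 17 of 22 (median -0.719). Type I interferon genes were more positive in 12 of 34 and more negative in 2, the opposite balance to the wild-type interaction, where 12 were more negative and none more positive (7 and 1 after centring). Ifit1, for example, fell to 538, 780.5 and 443 with high DOX at day 3, against 2751, 3432 and 1912 at day 1 (interaction 0.95, adjusted p = 0.0495). Ribosome biogenesis genes fell here too, and the interaction passed in 7 of 29 (1 more positive, 6 more negative). The 2 interactions share the Irf4-/- arrays without doxycycline and are not independent of each other.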

How the data were processed

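Signal intensities were deposited as 1 table for all 30 arrays and were normalized by the authors with D-Chip (perfect-match model), per the series' design text. MAS5 is also named in the submitters' processing notes, with no role. Here log2(intensity + 16) was used with no further scaling. Probe sets above the table median (188.25) on at least 3 arrays were tested (26095 of 45101, after leaving out 64 control sets), and each gene was represented by its set of highest mean, which gave 12183 genes with 1 symbol. Of 34945 sets with 1 symbol, 34741 were named through RefSeq. One limma model (version 3.58.1, R 4.3.3) was fitted to all 10 groups (20 residual degrees of freedom), with Benjamini-Hochberg adjustment and a threshold of 0.05. Interactions were contrasts of that fit. The fit was checked on simulated data.

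Named genes were the 15 largest changes each way among called genes without overlap, the 8 largest interactions each way, up to 4 members per list and a fixed panel. The members, lists and motifs were chosen with earlier results of these data known. A few values named from the lists beyond that rule were picked after they were seen. Same-numbered day 3 and day 1 arrays deviated together (correlations 0.516, 0.461 and 0.427), so the numbers pair the samples. The SEs and adjusted p values given come from the fit without the block, which does not use this pairing, unless stated. The block is an alternative. An exact test of 3 against 3 arrays cannot go below 0.1. Other choices tried were the offset, scaling, filters, array weights, probe set rule, leaving out arrays and, after the data were seen, the female Irf4-/- arrays alone. Genes with no tested set were not analysed here.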

Additional observations from a re-analysis of the deposited data

Results flagged for a closer look

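The day 3 minus day 1 change of Irf4-/- B cells without doxycycline differed from that of wild-type cells in 3557 genes and from that of high DOX cells in 3193, each by limma's test of the difference itself. Against wild type, the 8 genes with the most positive difference were S100a6 (2.61, log2), Mmp12 (2.47), Gbp2b (2.32), Ccl6 (1.99), Ccl22 (1.98), Pla2g7 (1.70), Clec4n (1.66) and Ppbp (1.62). S100a6, a calcium-binding protein, read 2211, 2327 and 1439 at day 3 and 1238, 1186 and 1872 at day 1 without Irf4, against 424, 477 and 417 at day 3 and 1864, 1709.8 and 2458 at day 1 in wild-type cells. The 8 most negative were Bhlha15 (-3.05), Fam171a1 (-2.89), Jchain (-2.74), Pon3 (-2.69), Tbc1d4 (-2.69), Cth (-2.38), Pinlyp (-2.32) and Gcsam (-2.31). Fam171a1 read 33.7, 33.6 and 26.1 at day 3 and 34.4, 26.6 and 35.6 at day 1 without Irf4, against 324, 294 and 294 at day 3 and 25.4, 26.2 and 33.6 at day 1 in wild-type cells. Clec4n lost its call when 1 array was left out in 8 of 12 cases, without day 3 replicate 2 or 3 or day 1 replicate 1 or 3 of the Irf4-/- cells or without replicate 1 or 2 of either wild-type group (1.45 to 1.70). With Irf4-/- replicate 3 alone, which is female like the wild-type arrays, S100a6, Ccl6, Ccl22, Pla2g7, Clec4n, Ppbp and Jchain kept their direction and lost their calls.

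Against high DOX, the 8 most positive were Ppbp (4.07), Pf4 (3.54), Gbp2b (3.43), Chil3 (2.95), Lyz1 (2.90), Ifitm1 (2.89), Gzma (2.71) and Ccl6 (2.62). Macrophage and NK marker sums were higher at day 3 without doxycycline, and their part in these differences was not tested. The 8 most negative were Jchain (-6.90), Bhlha15 (-4.10), Pon3 (-3.94), Epcam (-3.66), Klrb1f (-3.47), Rhpn2 (-3.32), Sec24d (-3.26) and Tg (-3.25). Epcam, an adhesion molecule, read 181, 172 and 212 at day 3 and 186, 183 and 328 at day 1 without doxycycline, against 5248, 4542 and 4855 at day 3 and 498, 306 and 561 at day 1 with high DOX. In wild-type cells Epcam fell, with 435, 449 and 456 at day 3 and 836, 887 and 795 at day 1.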

How the results depend on the processing

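The count of changed genes (6413) lay between 5711 and 7275 under the alternatives that kept all arrays, and between 5748 and 6186 when 1 array was left out. The interaction with wild type (3557) passed in 6210 genes with array weights, and in 2556 to 4218 with 1 array left out. The interaction with high DOX (3193) passed in 2600 to 3106 with 1 array left out. With the replicate number as a block, 7013 genes changed and the interactions passed in 4570 (wild type) and 3997 (high DOX), and no named call was lost, while Tbx21, Cd69, Pon3, Klrb1f and Tg passed for day 3 against day 1. With Irf4-/- replicate 3 alone, the female one, 213 genes passed against wild type, and 9 of the 16 genes with the largest of those interactions kept their calls. Of 146 named genes called in the main comparison, 135 kept call and direction under every alternative that tested them. No named call changed sign. Genes higher at day 3 made up 49.2% of the calls, and 45.3% to 52.7% under the alternatives, whereas centring turned the split of the wild-type interaction to 64.8% more positive, against 30.8% as deposited. Among the exceptions, Parp12, Tap2, Pax5, Cd3d, Lcn2 and Clec1b lost their calls without the library labelled day 1 replicate 2, as did Bhlha15, which is not among the 146, and the cause was not tested. Intensities near the table median lie close to background, which limits the dim genes.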
